A study of Mus musculus with 8 samples.

Results

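The genes described here encode the voltage-dependent anion channels (VDACs) of the outer mitochondrial membrane and proteins that regulate the permeability transition of the inner one. They are 8 genes chosen by name, Vdac1, Vdac2, Vdac3, Ppif, Tspo, Atpif1, Gsk3a and Gsk3b, of the 22065 genes that carry a symbol in the deposited count table. All 8 passed the expression filter of the test. RNA-seq had been done on 8 libraries, each made from 100 hematopoietic stem cells (HSCs) that were sorted from bone marrow as lineage-negative cells with CD150 and EPCR and without CD48. The mice were C57BL/6 and 8 to 10 weeks old, all carried floxed alleles of Mitol, and all had received Poly:IC 1 week earlier. The 4 libraries of the deleted group (MitolΔ/Δ) came from MX1-cre-positive mice and the 4 of the control group from MX1-cre-negative littermates. The MX1 promoter answers to interferon, which Poly:IC induces, so Cre acts in many interferon-responsive cells and not in HSCs alone. The labels do not say whether each library came from its own mouse, so p-values measure the spread between these libraries.

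MITOL, a ubiquitin ligase of the outer mitochondrial membrane, is encoded by Marchf5. Its normalized counts ran from 232 to 308 in the MitolΔ/Δ and from 262 to 333 in the control libraries, and the groups overlapped. Its log2 fold change was -0.15 (95% confidence interval -0.44 to 0.14, edgeR, adjusted p = 0.498). Counts over a whole gene do not show which exons are missing, so this value does not check the genotype labels. Counts on named genes summed to 7214935 to 12398138 a library, of which the 8 genes took 0.0678% to 0.0878%. All pairs of libraries within a group differed by more than sampling noise (chi-square per degree of freedom 6.15 to 26.9). MitolΔ/Δ replicate 3 stood apart in transcripts of maturing red cells, with 1387 normalized counts of Slc4a1 (the band 3 anion exchanger) where the other libraries had 0 to 13.2. MitolΔ/Δ replicate 4 had 523 of Car1 where the others had 0 to 52.8. Without replicate 3, Tspo and Atpif1 passed the test and Vdac1 did not, and without both libraries all these genes passed, with values beside each result. The fit without both was chosen after seeing the data. It called more genes of every kind, 1472 higher and 961 lower of 16444 tested, against 770 and 616 with all libraries. Without replicate 3 alone, 286 were higher and 204 lower.

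VDACs are beta-barrel pores through which ATP, ADP, phosphate and other metabolites cross the outer membrane, and hexokinases dock on them. The permeability transition is the opening of a large pore in the inner membrane under calcium load and oxidative stress, after which the membrane potential collapses and the organelle swells. Cyclophilin D, the product of Ppif, sensitizes that opening. TSPO is a cholesterol- and porphyrin-binding protein of the outer membrane that sits next to VDAC, and ATPIF1 blocks ATP hydrolysis by the ATP synthase when the membrane potential fails. GSK3α and GSK3β are kinases of insulin and WNT signalling whose inhibition is known to delay pore opening. HSCs hold their mitochondria at low activity, and a change in permeability is one route from mitochondrial stress to cell death.

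For 5 of the 8 genes RefSeq holds a promoter entry, 6 entries in all. The windows of Vdac1, Atpif1 and Gsk3a are printed because these are the genes with an entry whose MitolΔ/Δ and control libraries did not overlap, as described next. Tspo, Vdac2 and Vdac3 have no entry. Each window is the 250 bases before an annotated start on GRCm38.p6, written 5′ to 3′ on the gene's strand, and capitals mark every match to 1 of 8 short motifs, read on both strands. Vdac1 has 2 annotated starts, with windows at chr11:52360601-52360850 and chr11:52361347-52361596 on the plus strand. Those of Atpif1 and Gsk3a are chr4:132535415-132535664 and chr7:25237852-25238101, both on the minus strand.
Vdac1, first start: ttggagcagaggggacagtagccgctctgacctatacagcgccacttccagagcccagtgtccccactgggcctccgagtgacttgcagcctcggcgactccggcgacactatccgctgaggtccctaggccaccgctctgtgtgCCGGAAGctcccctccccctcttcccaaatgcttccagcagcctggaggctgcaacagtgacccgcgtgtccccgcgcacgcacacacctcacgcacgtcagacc
Vdac1, second start: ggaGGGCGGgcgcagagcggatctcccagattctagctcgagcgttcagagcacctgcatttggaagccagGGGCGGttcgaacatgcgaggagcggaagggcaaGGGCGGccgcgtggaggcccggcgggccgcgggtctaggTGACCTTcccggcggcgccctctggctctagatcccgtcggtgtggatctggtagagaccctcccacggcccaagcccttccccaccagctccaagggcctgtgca
Atpif1: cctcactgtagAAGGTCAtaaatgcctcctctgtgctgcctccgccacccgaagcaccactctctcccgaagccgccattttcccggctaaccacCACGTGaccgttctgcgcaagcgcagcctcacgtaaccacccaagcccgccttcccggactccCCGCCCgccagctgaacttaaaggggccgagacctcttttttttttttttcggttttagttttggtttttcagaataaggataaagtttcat
Gsk3a: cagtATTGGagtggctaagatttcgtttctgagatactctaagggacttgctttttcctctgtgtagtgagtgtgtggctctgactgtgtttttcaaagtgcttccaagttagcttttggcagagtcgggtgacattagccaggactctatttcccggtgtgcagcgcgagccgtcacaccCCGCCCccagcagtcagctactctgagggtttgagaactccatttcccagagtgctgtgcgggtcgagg

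The motifs searched were CACGTG (the E-box), GCGCATG (NRF1 core), GGGCGG (SP1), CCAAT (NFY), CCGGAAG (ETS), TTCCCGC (E2F), AAGGTCA (estrogen-related receptors, ERR) and GACGTGG (XBP1 core). The E-box and the reverse complement of the XBP1 core share the letters CACGT. The Atpif1 window holds an E-box 155 bases before the start, which 6.02% of all 32851 RefSeq promoter windows of this length have. It also holds AAGGTCA, found in 4.08% of windows, and GGGCGG, found in 32.7%. The window of the second Vdac1 start holds 3 copies of GGGCGG and 1 of AAGGTCA, and that of the first start a single CCGGAAG, present in 6.91% of windows. The Gsk3a window has CCAAT, found in 33.8% of windows, and GGGCGG. Of the 2 windows not printed, that of Gsk3b has CCAAT 3 times and that of Ppif has the SP1, NFY and ETS motifs once each. GC content ran from 52.0% in the Gsk3a window to 68.4% in the second Vdac1 window, against a median of 52.4% over all windows. A match is a run of letters and not a shown binding site.

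Of the 8 genes, 3 were higher in MitolΔ/Δ HSCs with an adjusted p under 0.05 by edgeR's quasi-likelihood test, and 0 were lower. They were Tspo, Atpif1 and Vdac1. Among all 16444 genes tested, 8.43% were called by the same rule, 4.68% higher and 3.75% lower. Groups that did not overlap, with every MitolΔ/Δ library above every control library, were seen for these genes and Gsk3a, 4 of 8, against 8.17% of all genes tested. The reverse order, seen for 0 of 8, held for 7.18% of all genes, and either order for 15.4%. All 8 log2 fold changes were above 0, with a median of 0.25 over the 8 genes against -0.020 over all genes tested, of which 47.7% were above 0. At an unadjusted p under 0.05 by edgeR, and at an adjusted p under 0.05 by DESeq2, no gene was lower either (0 of 8 by each). DESeq2 called 4 of 8 higher, Gsk3a in addition, where it called 8.37% of all genes higher and 6.3% lower. The study itself showed Atpif1, Vdac1 and Gsk3a as examples from these same libraries, so the count is not independent evidence of a direction. In bulk libraries, fewer cells of a type and less RNA per cell cannot be told apart.

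**Figure D1:**
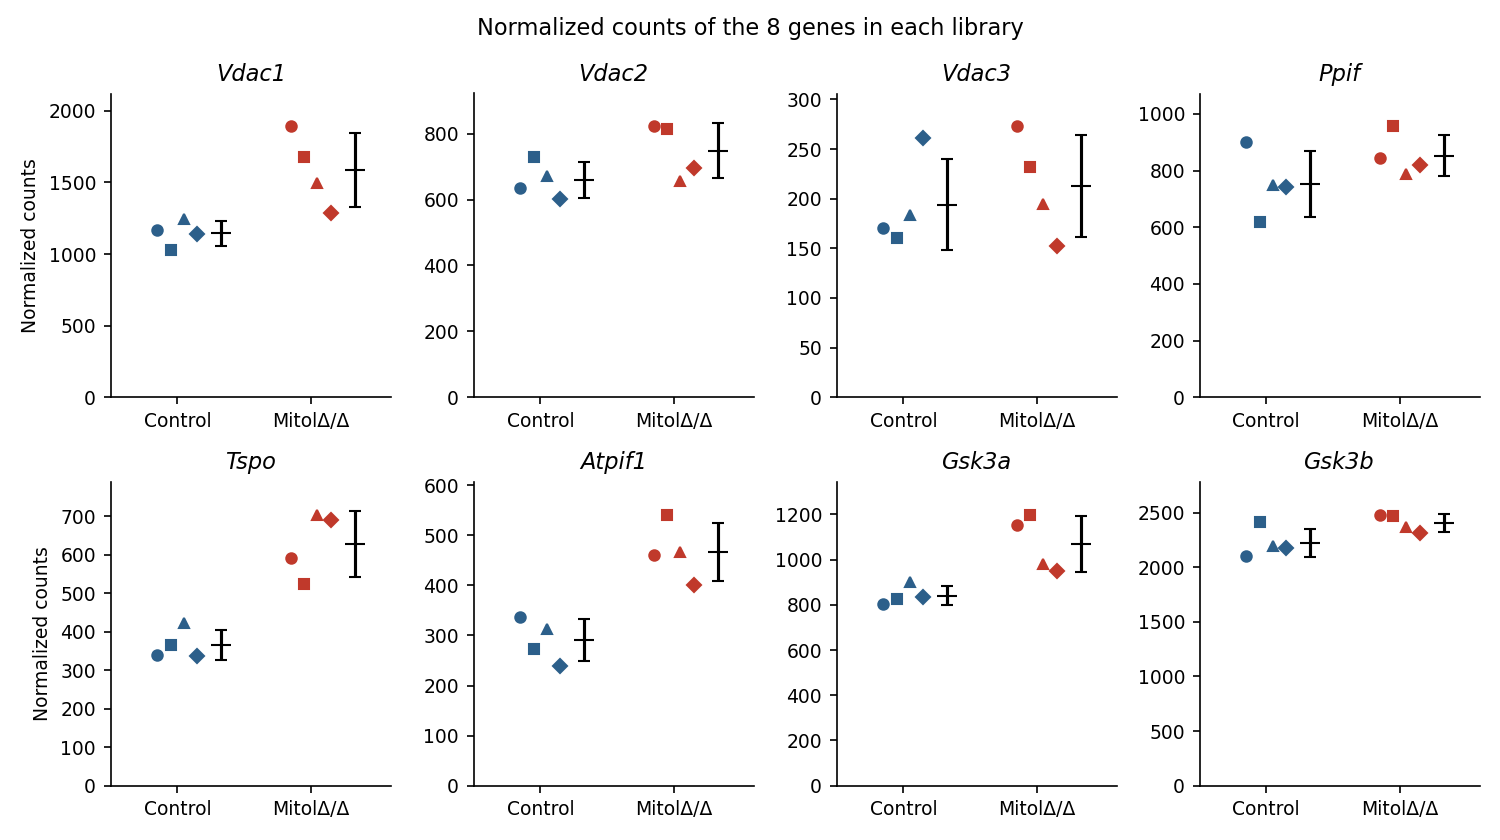
Normalized counts (counts divided by DESeq2 size factors, linear axes from 0) of the 8 genes in each library. Blue symbols are control and red symbols MitolΔ/Δ libraries, with circles, squares, triangles and diamonds for replicates 1 to 4, and black bars give the mean ± SD (n = 4). The red symbols all lie above the blue ones for Vdac1, Tspo, Atpif1 and Gsk3a, and the colours mix for the other 4 genes.

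Among the channels, Vdac1 alone passed the test. Vdac1, the most abundant channel isoform in most tissues, maps to bases 52251198 to 52280348 of chromosome 11 (GRCm39, as for all positions of genes given here). Its normalized counts were 1894, 1677, 1493 and 1287 in MitolΔ/Δ replicates 1 to 4 and 1166, 1027, 1245 and 1137 in control replicates 1 to 4. Every MitolΔ/Δ library lay above the highest control library, replicate 4 by the smallest margin. The means were 1588 ± 259 and 1144 ± 90.4 (SD, n = 4 each), and the SD in the MitolΔ/Δ group was the larger one. The log2 fold change was 0.45 (standard error 0.12, edgeR, adjusted p = 0.0345), a fold of 1.37 with a 95% confidence interval of 1.15 to 1.63. Vdac1 passed in all 8 settings on the full data, this fit included, with adjusted p from 0.00576 to 0.0481 (edgeR, DESeq2 or limma-voom). With 1 library left out it passed in 1 of 8 fits, the one without MitolΔ/Δ replicate 4 (edgeR, log2 fold change 0.56, adjusted p = 0.00525). In the 7 other fits the log2 fold change was 0.36 to 0.51 and the adjusted p 0.0534 to 0.103 (edgeR). Without MitolΔ/Δ replicates 3 and 4, those with most red-cell transcripts, the log2 fold change was 0.64 (edgeR, adjusted p = 0.00295). This fit was chosen after seeing the data. It also leaves out the lowest MitolΔ/Δ values of Vdac1, 1493 and 1287, so a larger fold change follows from the choice.

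Vdac2, whose product also binds and holds BAK at the outer membrane, maps to bases 21874266 to 21895952 of chromosome 14. It had normalized counts of 823, 814, 657 and 696 in MitolΔ/Δ replicates 1 to 4 and 634, 729, 672 and 601 in control replicates 1 to 4. MitolΔ/Δ replicates 1 and 2 were above every control library and replicates 3 and 4 within the control range. The means were 748 ± 83.5 and 659 ± 54.9 (SD, n = 4 each), and the log2 fold change of 0.16 (standard error 0.11, edgeR, adjusted p = 0.35) did not pass. Its 95% confidence interval ran from -0.065 to 0.39, so a rise as large as 1.31-fold could not be told from none in these libraries.

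Vdac3, the least abundant isoform, maps to bases 23066114 to 23104500 of chromosome 8. Its normalized counts were 273, 232, 195 and 152 in MitolΔ/Δ replicates 1 to 4 and 170, 161, 184 and 261 in control replicates 1 to 4. The groups overlapped fully, with the lowest value in MitolΔ/Δ replicate 4 and the highest in MitolΔ/Δ replicate 1. The means were 213 ± 51.5 and 194 ± 45.9 (SD, n = 4 each), and the log2 fold change was 0.11 (standard error 0.21, 95% confidence interval -0.34 to 0.56, edgeR, adjusted p = 0.770). Without MitolΔ/Δ replicate 1 it was -0.027 (edgeR, adjusted p = 0.954). Vdac3 rested on the fewest reads of the 8 genes, 129 to 349 counts a library, while Gsk3b had up to 3172.

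Vdac2 and Vdac3, the isoforms with fewer counts, both have near-copies elsewhere in the genome. Gene models outside the locus match 97.5% of the bases of the Vdac2 reference transcript and 92.5% of those of Vdac3 at 95% identity or more over at least 75 bases, against 6.24% for Vdac1. They include Gm7832 and Gm28271 for Vdac2 and Vdac3-ps1, Gm61604 and Gm7591 for Vdac3. These copies were not analysed here, and how the authors' counting treated reads that match several places is not given in the sources used here. The Vdac2 and Vdac3 values are therefore less certain than that of Vdac1.

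Counts summed over the channels were 2991, 2723, 2345 and 2135 in MitolΔ/Δ replicates 1 to 4 and 1970, 1916, 2101 and 1999 in control replicates 1 to 4. Each MitolΔ/Δ sum was above each control sum, and means were 2548 ± 382 and 1997 ± 77.4 normalized counts (SD, n = 4 each). Per kilobase of merged exons, Vdac1 made up 69.7% ± 1.75 of the channel level in MitolΔ/Δ HSCs and 65.3% ± 2.73 in control HSCs (SD, n = 4 each). Vdac2 made up 26.6% ± 2.07 and 30.4% ± 3.13, and Vdac3 3.64% ± 0.37 and 4.35% ± 1.06 (SD, n = 4 each). These shares depend on the transcript model. Merged exons span 5281, 6563 and 13467 bases for Vdac1, Vdac2 and Vdac3, but their reference transcripts only 2146, 956 and 1419. Divided by the longest transcript, control levels per kilobase were 368, 264 and 31.2. Shares by the reference transcripts were not computed, so the rank of Vdac1 over Vdac2 per length is not settled.

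Whether 1 isoform moved more than another was tested on the ratio of their counts within a library, in which library size cancels. The count ratio of Vdac1 to Vdac3 was 6.93, 7.24, 7.66 and 8.44 in MitolΔ/Δ replicates 1 to 4 and 6.85, 6.39, 6.78 and 4.35 in control replicates 1 to 4. The groups did not overlap, though MitolΔ/Δ replicate 1 and control replicate 1 were close. The log2 ratio was higher by 0.33 (2-sided exact permutation test, p = 0.0286, 0.0571 adjusted over 4 ratios), and by 0.18 without control replicate 4 (exact permutation test, p = 0.0571). The smallest p that 4 libraries against 4 allow is 0.0286, and with 2 of the 4 ratios at that p the adjusted p cannot go below 0.0571.

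For Vdac1 against Vdac2 the count ratios were 2.30, 2.06, 2.27 and 1.85 in MitolΔ/Δ replicates 1 to 4 and 1.84, 1.41, 1.85 and 1.89 in control replicates 1 to 4. The groups overlapped at MitolΔ/Δ replicate 4. The log2 ratio differed by 0.28 (2-sided exact permutation test, p = 0.0857, 0.114 adjusted over 4 ratios), and by 0.18 without control replicate 2 (exact permutation test, p = 0.114). For Vdac2 against Vdac3 the difference was 0.049 (same exact test, p = 0.914, 0.914 adjusted). Thus the adjusted p does not decide for any ratio here, and a difference between the rise of Vdac1 and the values of Vdac2 and Vdac3 stands undecided.

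**Figure D2:**
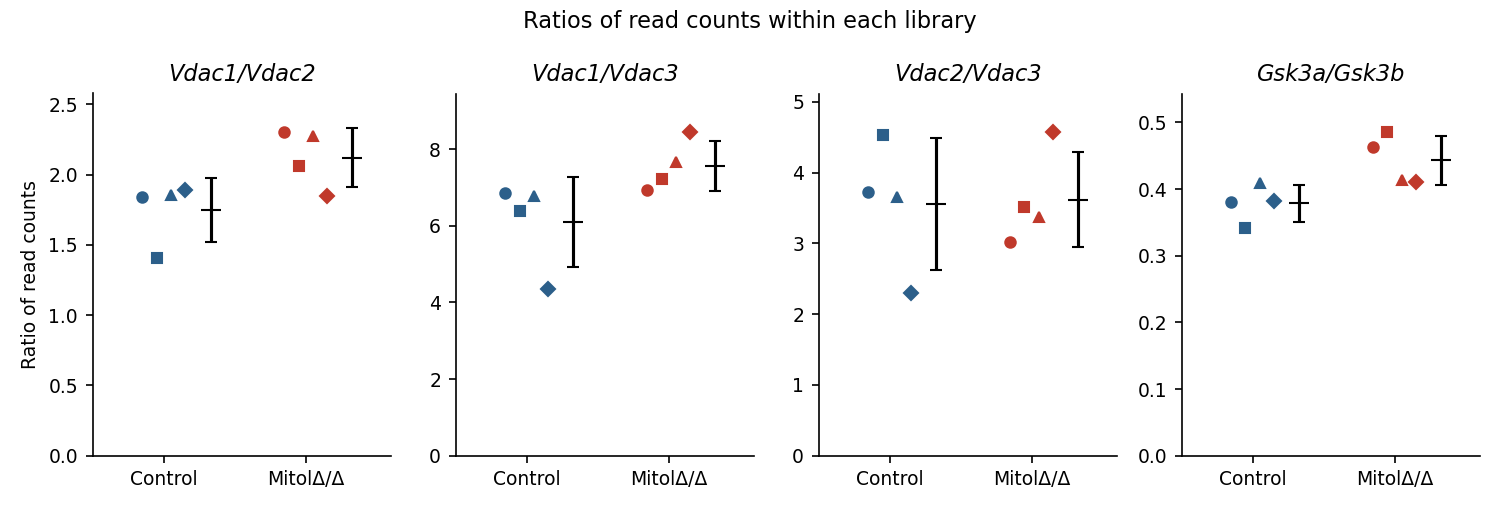
Ratio of read counts of 2 genes within each library (linear axes from 0), with control libraries in blue, MitolΔ/Δ libraries in red, replicates 1 to 4 as circles, squares, triangles and diamonds, and mean ± SD in black (n = 4). The groups are apart for Vdac1/Vdac3 and Gsk3a/Gsk3b and overlap for the other 2 ratios, and control replicate 2 is low for Vdac1/Vdac2 and control replicate 4 for Vdac1/Vdac3.

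Among the regulators of the transition, Tspo had the largest log2 fold change of the 8 genes. The gene maps to bases 83447735 to 83458406 of chromosome 15. Its normalized counts were 592, 523, 704 and 690 in MitolΔ/Δ replicates 1 to 4 and 340, 365, 421 and 337 in control replicates 1 to 4. The groups were well apart, and MitolΔ/Δ replicates 3 and 4, the lowest for Vdac1, were the highest for Tspo. The means were 627 ± 85.6 and 366 ± 38.9 (SD, n = 4 each), a log2 fold change of 0.76 (standard error 0.13, edgeR, adjusted p = 0.00844), or 1.69-fold with a 95% confidence interval of 1.40 to 2.05. It passed in all 8 fits that left out 1 library (edgeR, adjusted p from 0.00527 to 0.0313) and all 8 settings on the full data (adjusted p from 5.13e-06 to 0.0118 over edgeR, DESeq2 and limma-voom).

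TSPO binds porphyrins, the precursors of heme, so red-cell genes are given beside it. Of 16 erythroid markers 9 were tested and 3 were higher, Gata1, Hbb-bt and Tfrc, and 0 were lower, with a median log2 fold change of 0.88 and 8 of 9 above 0. Summed normalized counts of all 16 ran from 6012 to 10450 in MitolΔ/Δ and from 5383 to 7121 in control libraries, and much of them came from Car2 (log2 fold change -0.22, edgeR, adjusted p = 0.316). Without Car2 the sums were 1828, 2067, 6807 and 4156 in MitolΔ/Δ replicates 1 to 4 and 1498, 1540, 1341 and 1100 in control replicates 1 to 4, and the groups did not overlap. MitolΔ/Δ replicates 3 and 4, the highest for Tspo, were also the highest for these markers. The log2 fold change of Tspo was 0.71 without replicate 3 (edgeR, adjusted p = 0.0304) and 0.60 without both (edgeR, adjusted p = 0.0141), a fit chosen after seeing the data. In replicates 1 and 2 the red-cell sum without Car2 was still above that of every control library. Tspo2, the red-cell paralog of Tspo, had 0, 2, 20 and 18 raw counts in MitolΔ/Δ replicates 1 to 4 and 0 to 3 in the control libraries, and was not tested. The part of red-cell transcripts in the Tspo result was not tested.

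Tspo shares 578 exon bases with Ttll12 and 199 with Mcat, which run on the opposite strand. The strand setting of the counting is not given in the sources used here, and reads over these bases cannot be told apart without it. Ttll12 had 575 to 732 normalized counts in MitolΔ/Δ and 437 to 560 in control libraries, also without overlap, and its log2 fold change was 0.37 (edgeR, adjusted p = 0.0636). For Mcat it was 0.038 (edgeR, adjusted p = 0.857). The limit is not particular to Tspo. Gsk3a shares 1048 exon bases with the opposite-strand gene 9130221H12Rik, which had 65 to 99 raw counts a library. Atpif1 shares 1055 with Gm12999, and Vdac1 439 with Gm57370 and 372 with Gm73988, all on the opposite strand. Counts of Gm12999, Gm57370 and Gm73988 were not analysed here.

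Atpif1, the inhibitor of the ATP synthase (Atp5if1 in GENCODE), maps to bases 132257215 to 132262823 of chromosome 4. It had normalized counts of 461, 541, 467 and 400 in MitolΔ/Δ replicates 1 to 4 and 336, 273, 314 and 240 in control replicates 1 to 4. The groups did not overlap, with MitolΔ/Δ replicate 2 the highest and control replicate 4 the lowest. The means were 467 ± 57.9 and 291 ± 42.8 (SD, n = 4 each), a log2 fold change of 0.67 (standard error 0.14, edgeR, adjusted p = 0.0170), or 1.59-fold with a 95% confidence interval of 1.29 to 1.95. It passed in 6 of the 8 fits that left out 1 library. It missed the threshold without MitolΔ/Δ replicate 2 (edgeR, log2 fold change 0.59, adjusted p = 0.0504) and without control replicate 2 (edgeR, log2 fold change 0.64, adjusted p = 0.0572). Without MitolΔ/Δ replicates 3 and 4 the log2 fold change was 0.78 (edgeR, adjusted p = 0.00809), in a fit chosen after seeing the data.

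Ppif, which encodes cyclophilin D, maps to bases 25694522 to 25707332 of chromosome 14. Its normalized counts were 845, 957, 789 and 820 in MitolΔ/Δ replicates 1 to 4 and 899, 617, 750 and 741 in control replicates 1 to 4. Only MitolΔ/Δ replicate 2 was above all controls, because control replicate 1 was high. The means were 853 ± 73.2 and 752 ± 116 (SD, n = 4 each), and the log2 fold change of 0.16 (standard error 0.12, 95% confidence interval -0.091 to 0.42, edgeR, adjusted p = 0.405) did not pass. The opposite-strand gene Ppifos, which shares 1071 exon bases with Ppif, had 0 to 5 raw counts a library.

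The GSK3 kinases, which are close relatives encoded by separate genes, differed in how clearly their libraries separated. Gsk3a, at bases 24927682 to 24937564 of chromosome 7, had normalized counts of 1151, 1199, 979 and 949 in MitolΔ/Δ replicates 1 to 4 and 802, 824, 901 and 832 in control replicates 1 to 4. The groups did not overlap, and the gap lay between MitolΔ/Δ replicate 4 and control replicate 3. The means were 1070 ± 124 and 840 ± 42.6 (SD, n = 4 each). The log2 fold change of 0.33 (standard error 0.098, edgeR, adjusted p = 0.0565) did not pass, while with DESeq2 it was 0.34 (adjusted p = 0.0207), and without MitolΔ/Δ replicate 4 it was 0.40 (edgeR, adjusted p = 0.0194).

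Gsk3b, at bases 37909363 to 38066446 of chromosome 16, had normalized counts of 2483, 2471, 2369 and 2313 in MitolΔ/Δ replicates 1 to 4 and 2107, 2411, 2199 and 2177 in control replicates 1 to 4. Control replicate 2 lay within the MitolΔ/Δ range, and the other control libraries lay below it. The means were 2409 ± 81.9 and 2223 ± 131 (SD, n = 4 each), and the log2 fold change was 0.097 (standard error 0.076, edgeR, adjusted p = 0.449). The 95% confidence interval of the fold, 0.954 to 1.20, was the narrowest of the 8. The count ratio of Gsk3a to Gsk3b was 0.464, 0.485, 0.413 and 0.410 in MitolΔ/Δ replicates 1 to 4 and 0.380, 0.342, 0.410 and 0.382 in control replicates 1 to 4. The groups were apart by less than 0.001, between MitolΔ/Δ replicate 4 and control replicate 3. The log2 ratio was higher by 0.23 (2-sided exact permutation test, p = 0.0286, 0.0571 adjusted over 4 ratios), again the smallest p the design allows, so whether the paralogs differ in response was not decided.

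**Figure D3:**
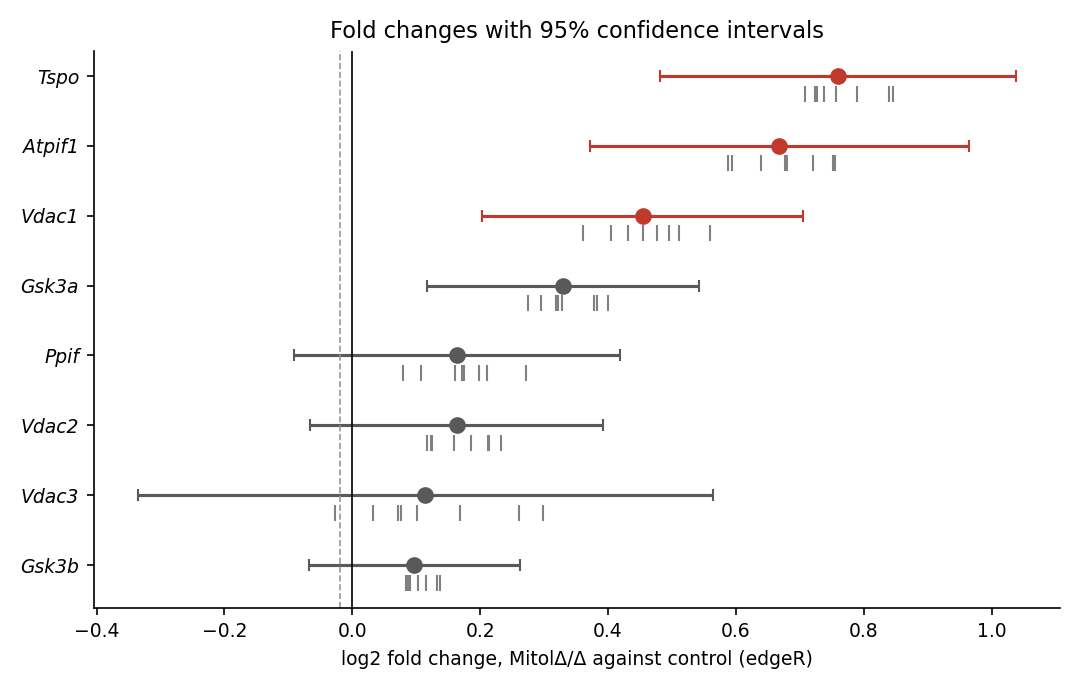
Log2 fold changes of the 8 genes, MitolΔ/Δ against control, by edgeR (circles, red where the adjusted p was under 0.05) with 95% confidence intervals. Grey ticks under each gene are the 8 fits that left out 1 library, the solid line is 0 and the dashed line the median of all genes tested, -0.020. The intervals of Tspo, Atpif1, Vdac1 and Gsk3a lie above 0, and the ticks of Vdac3 reach -0.027.

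Levels of the 8 genes were compared with each other per kilobase of merged exons. In control HSCs, normalized counts per kilobase were 237 ± 12.03 for Gsk3a, 226 ± 13.3 for Gsk3b and 217 ± 17.1 for Vdac1 (SD, n = 4 each). Then came Tspo with 114 ± 12.2, Ppif with 111 ± 17.04, Vdac2 with 100.4 ± 8.36 and Atpif1 with 95.3 ± 14.03, and last Vdac3 with 14.4 ± 3.41 (SD, n = 4 each). Of neighbours in this order, Vdac1 and Tspo were apart in all control libraries, and so were Atpif1 and Vdac3, while the other 5 neighbouring pairs overlapped. In MitolΔ/Δ HSCs, Vdac1, at 301 ± 49.1 per kilobase, had rank 2 after Gsk3a with 302 ± 35.1, and Atpif1, at 153 ± 19.0, had rank 5 instead of 7 (SD, n = 4 each). Divided by the longest transcript instead, Vdac1 had rank 1 in control HSCs with 368 and Tspo rank 7 with 136, so the order depends on the transcript model while the fold changes do not.

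Cell-cycle and stem-cell transcripts also differed between the groups. Of 24 G2/M phase genes 22 were higher and 0 lower, and their summed normalized counts ran from 10638 to 21456 in MitolΔ/Δ and from 4570 to 10413 in control libraries. Of 19 S phase genes tested 6 were higher and 0 lower, with sums from 20542 to 43318 and from 13805 to 24022. In a list of 17 HSC markers 4 were lower, Kit, Hlf and Gata2 among them. The 1 that was higher, Cd48, is in the list as a marker that these cells were sorted to lack. Sums over the 17 genes, Cd48 included, ran from 41170 to 45852 in MitolΔ/Δ and from 56289 to 62513 in control libraries. The sort markers Procr (EPCR) and Slamf1 (CD150) were present in every library. Procr had 387 to 514 normalized counts in MitolΔ/Δ and 470 to 719 in control libraries (log2 fold change -0.34, edgeR, adjusted p = 0.179). Slamf1 had 412 to 669 and 299 to 410, without overlap (log2 fold change 0.56, edgeR, adjusted p = 0.0501, DESeq2, adjusted p = 0.0125). Kit (CD117), by which the study's methods also define these cells, was lower, with 6061 to 8386 in MitolΔ/Δ and 10221 to 13429 in control libraries (log2 fold change -0.75, edgeR, adjusted p = 0.00705). Cd48, against which the cells were gated, had 22.2 to 63.4 in MitolΔ/Δ and 4.49 to 21.7 in control libraries.

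Among MitolΔ/Δ libraries the G2/M sum was 21456, 20094, 17251 and 10638 normalized counts in replicates 1 to 4, and Vdac1, Vdac3 and Gsk3b had their values in that same order. Tspo had its 2 highest values in MitolΔ/Δ replicates 3 and 4, where the G2/M sum was lowest in that group. Among control libraries the G2/M sum was highest in replicate 3, at 10413, and so were Vdac1, at 1245, and Tspo, at 421. Vdac3 and Gsk3b did not follow that sum in the controls. Gsk3b was highest in control replicate 2, at 2411, where the G2/M sum was lowest, at 4570. Vdac3 was highest in control replicate 4, at 261. The part of cell-cycle differences in the results on the 8 genes was not tested.

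**Figure D4:**
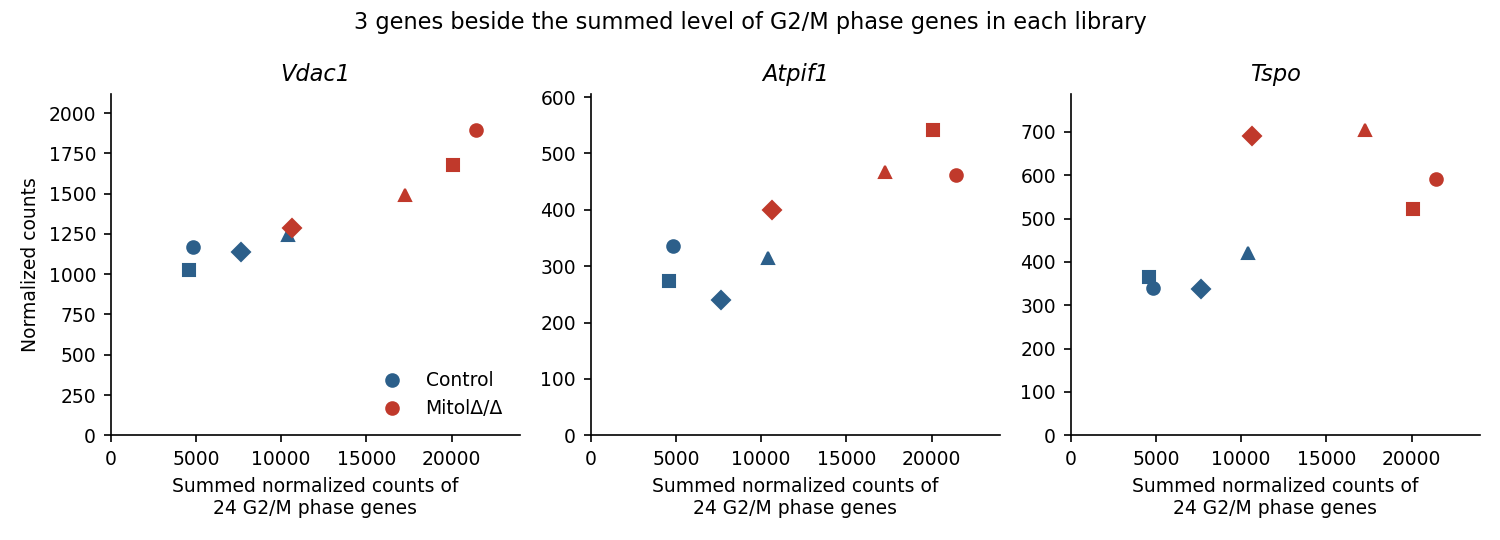
Normalized counts of Vdac1, Atpif1 and Tspo (vertical, from 0) against the summed normalized counts of 24 G2/M phase genes (horizontal, from 0), 1 symbol a library, control in blue and MitolΔ/Δ in red, with circles, squares, triangles and diamonds for replicates 1 to 4. Among the red symbols Vdac1 is highest where the G2/M sum is highest, at 21456, and Tspo is highest in replicates 3 and 4. Among the blue symbols both are highest in replicate 3.

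Markers of other blood cells were also checked. Of 7 megakaryocyte markers tested 0 were higher and 2 lower, Pf4 among them, and the summed counts of the list ran from 7639 to 10593 in MitolΔ/Δ and from 13150 to 15377 in control libraries. Of the lists for mast cells, T cells, B-lineage cells and neutrophils, 1, 2, 1 and 2 genes were tested and 0 were called in either direction by edgeR. The neutrophil sums, 490 to 1026 in MitolΔ/Δ and 405 to 619 in control libraries, were mostly Prtn3, a protease gene also used by early myeloid progenitors (log2 fold change 0.76, edgeR, adjusted p = 0.0674, DESeq2, adjusted p = 0.0155). S100a9, a marker of mature neutrophils, was at 0 in every MitolΔ/Δ library and at 2.64 to 21.3 normalized counts in control libraries. The B-lineage sums were 136 to 150.3 and 145 to 204. T-cell sums were 189 to 259 and 172 to 200.5, and mast-cell sums 7.32 to 13.8 and 11.3 to 21.1. The defining markers Ctsg, Pax5, Ebf1, Cd3e and Fcer1a were not analysed here.

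Around the 8 genes stand their known partners, in lists drawn from general knowledge but chosen with earlier results of these data known. The study itself showed Slc25a5 and Hk2 from these same libraries, so their calls below are not independent evidence. Adenine nucleotide and phosphate carriers exchange ATP and phosphate across the inner membrane, behind the VDAC pores. Of 3 tested, 1 was higher and 0 lower. This was Slc25a5 (ANT2), with normalized counts of 1422 to 2392 in MitolΔ/Δ and 782 to 1339 in control libraries and a log2 fold change of 0.86 (edgeR, adjusted p = 0.0195). For Slc25a3, the phosphate carrier and the most abundant of them, the log2 fold change was 0.19 (edgeR, adjusted p = 0.204). Hexokinases phosphorylate glucose at the outer membrane. Of 3 tested, Hk2 was higher, from 1513 to 2742 against 660 to 1340 normalized counts, with a log2 fold change of 0.99 (edgeR, adjusted p = 0.0183), and the more abundant Hk1 had 0.30 (edgeR, adjusted p = 0.102).

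The ATP synthase is the enzyme that ATPIF1 inhibits and a proposed site of the transition pore. Of 15 subunit and assembly genes tested, 6 were higher and 0 lower, with a median log2 fold change of 0.39 against -0.020 over all genes. Those with the lowest p were Atp5b, the catalytic β subunit (log2 fold change 0.59, edgeR, adjusted p = 0.0158), Atp5pb (0.64, adjusted p = 0.0177), Atp5g3 (0.80, adjusted p = 0.0183) and Atp5a1, the most abundant over all libraries (0.39, adjusted p = 0.0309). Of the 9 that did not pass, Atp5l and Dmac2l had values of -0.42 and -0.43 (edgeR, adjusted p = 0.0925 and 0.0541). Other cyclophilins share the peptidyl-prolyl isomerase fold of cyclophilin D. Of 16 tested, Ppif included, 2 were higher and 0 lower, with a median log2 fold change of 0.16. They were Ppia, the cytosolic cyclophilin A and the most abundant over all libraries (0.51, edgeR, adjusted p = 0.0380), and Ppil1 (0.76, adjusted p = 0.0348), a component of the spliceosome.

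Of 9 tested relatives and partners of TSPO in cholesterol and porphyrin handling, 1 was higher and 1 lower. Dbi, the acyl-CoA-binding protein that is also a ligand of TSPO, was higher with 237 to 347 against 179 to 224 normalized counts (log2 fold change 0.53, edgeR, adjusted p = 0.0451). Star, which delivers cholesterol to mitochondria, was lower with 199 to 239 against 292 to 339 (log2 fold change -0.56, edgeR, adjusted p = 0.0208). Prkar1a, the most abundant of the list, had 0.080 (edgeR, adjusted p = 0.549). The list's median of -0.036 was close to that of all genes.

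The calcium uniporter loads the matrix with the calcium that triggers the transition. Of 8 genes tested 1 was higher and 1 lower. Smdt1 (EMRE), which couples the pore to its gatekeepers, had 441 to 541 normalized counts in MitolΔ/Δ and 287 to 361 in control libraries (log2 fold change 0.54, edgeR, adjusted p = 0.0204). The pore subunit gene Mcu had a value of 0.0046 (edgeR, adjusted p = 0.986) and Mcur1, the most abundant of the list, -0.032 (adjusted p = 0.887). Mcu was added to the named genes after its value was seen.

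Of 19 tested kinases, scaffolds and substrates around GSK3, 2 were higher and 1 lower. Rps6ka3 (RSK2), a kinase that can phosphorylate GSK3 at its inhibitory site, had 1950 to 2835 normalized counts in MitolΔ/Δ and 731 to 1035 in control libraries (log2 fold change 1.42, edgeR, adjusted p = 0.00134). Ctnnb1, whose product β-catenin is marked for decay by GSK3, had 3758 to 4335 against 2812 to 3277 (0.35, adjusted p = 0.0242 by edgeR). Csnk1a1, the most abundant of the list, had 0.079 (edgeR, adjusted p = 0.532).

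At the outer membrane, 12 partners of VDAC were tested, of which 1 was higher and 1 lower. Hspa9 (mortalin), the chaperone that tethers VDAC to the ER calcium channel IP3R, had 1678 to 2220 normalized counts in MitolΔ/Δ and 1138 to 1617 in control libraries (log2 fold change 0.47, edgeR, adjusted p = 0.0324). Mcl1, the most abundant of the list, had -0.079 (adjusted p = 0.759 by edgeR). Of 6 genes for the other beta-barrel proteins and their assembly 0 passed in either direction by edgeR, and Samm50, the core of the assembly machine, had 0.0017 (adjusted p = 0.994).

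**Figure D5:**
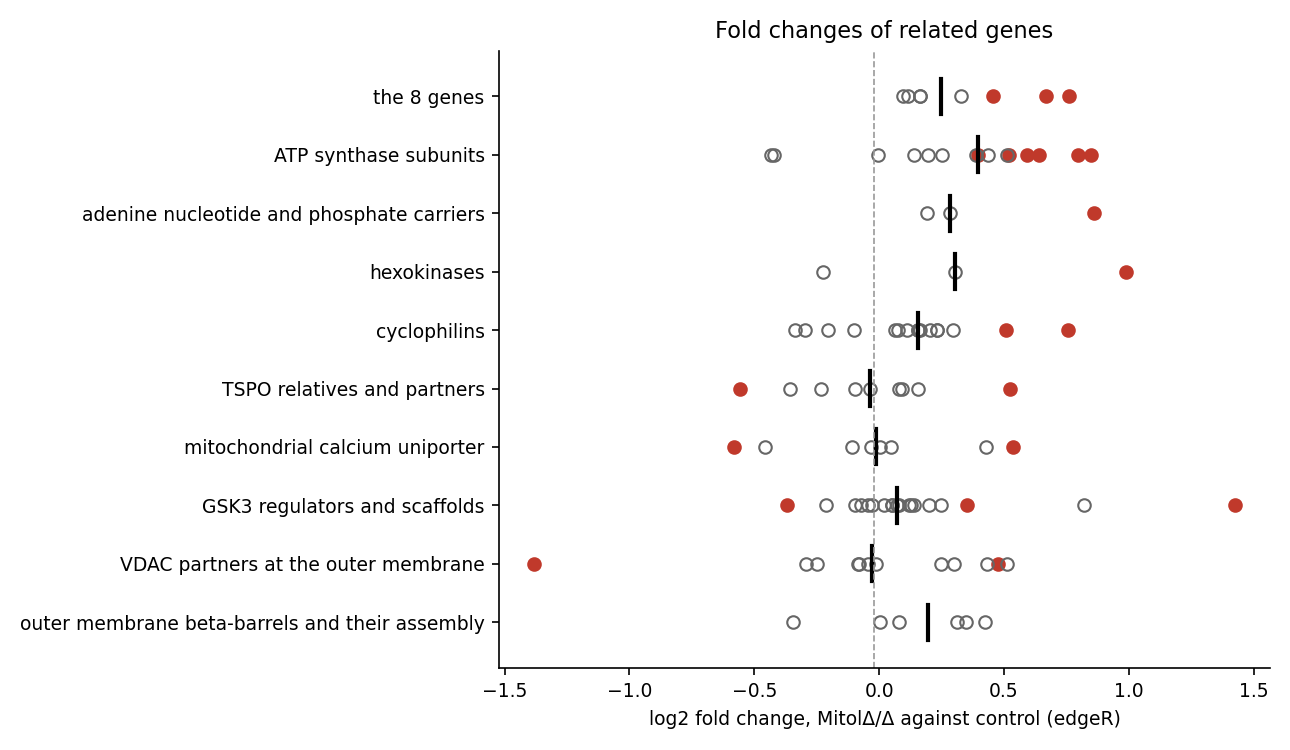
Log2 fold changes (edgeR, MitolΔ/Δ against control) of the 8 genes and of tested genes in 9 lists of partners, 1 circle a gene, filled red where the adjusted p was under 0.05. Black bars are list medians and the dashed line is the median of all genes tested. The median is 0.25 for the 8 genes, 0.39 for ATP synthase subunits and -0.036 for relatives of TSPO.

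The genes whose variation within the groups was most like that of each of the 8 were also listed. Likeness was Pearson's r of log2 CPM (read counts scaled to the library total after TMM normalization), with the group means subtracted. It was taken over 8 libraries and among 12012 genes with at least 50 mean normalized counts. For Vdac1 they were Snrpd3 (r = 0.983) and Myl12a (r = 0.979), and for Atpif1 Polr1b (r = 0.993) and Snx30 (r = 0.989). Tspo was closest to 5430431A17Rik (r = 0.968) and Arfgef1 (r = 0.967), and Gsk3a to Tecpr2 (r = 0.992) and Gpn1 (r = 0.980). Vdac2 was closest to Rab28 (r = 0.984) and Smad5 (r = 0.982), Vdac3 to the mitochondrially encoded mt-Nd4 (r = 0.985) and to Lrrfip2 (r = 0.975), Ppif to Tm2d3 (r = 0.982) and Rfx1 (r = 0.968), and Gsk3b to Srd5a3 (r = 0.960) and Snx4 (r = 0.959). The highest of so many values over 8 libraries is high by selection, and all genes of a library share its depth.

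Among the 8 genes themselves, the within-group values of Vdac1 ran with those of Gsk3a (r = 0.808) and Vdac3 (r = 0.739), over 8 libraries. Tspo had negative values with each of the other 7, from -0.527 with Vdac3 to -0.186 with Gsk3b. So Tspo, Atpif1 and Vdac1 were each higher in MitolΔ/Δ libraries, but the libraries in which they were highest were not the same ones.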

How the data were processed

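The authors aligned single-end reads with STAR to mm39, merged the alignments (samtools) and summed reads over each gene (subread). The deposited counts are raw, with 23094 rows, of which 1029 without a symbol (0.335% to 0.467% of a library's counts) were left out. The annotation is not given in the sources used here. Library totals were 7214935 to 12398138. Genes were tested with edgeR (version 4.0.16, quasi-likelihood), using TMM, its expression filter and Benjamini-Hochberg adjustment over 16444 genes, on genotype alone. Normalized counts are counts divided by size factors of DESeq2 (version 1.42.0). Ratios were compared by exact permutation over 70 arrangements. Alternatives were other normalizations, filters, DESeq2, limma-voom (limma version 3.58.1), a replicate block and each library left out, and 1 fit added after seeing the data. The fits were tested on simulated data. Positions came from GENCODE vM39 on GRCm39, and copies from BLAST+ (version 2.17.0). The 8 genes, lists and motifs were chosen with earlier results of these data known. From each list, the text names at most 4 called genes with the lowest p and the most abundant one, and for each of the 8 genes the 2 most alike, and the targeted gene. Markers, overlapping genes, near-copies, Car1, Car2, Slc4a1, Prtn3, S100a9, Atp5l, Dmac2l and Mcu were named beyond that rule. Reads carry no molecular identifiers. Some called genes of the lists enter the counts and are not reported here by name.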

Additional observations from a re-analysis of the deposited data

Results flagged for a closer look

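Dixon's test for a library far from the others was applied to the 8 genes and 4 ratios in each group, 24 tests in all, and chance flags about 1 in 20. It marked 2 control libraries, both through a ratio of channel isoforms. In control replicate 2 the log2 ratio of Vdac1 to Vdac2 was 0.49, with a gap to the nearest library of 0.901 of the group's range. In control replicate 4 the log2 ratio of Vdac1 to Vdac3 was 2.12, with a gap of 0.846 of the range.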

How the results depend on the processing

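Of 110 results under alternatives other than 1 library left out, 98 were tallied as unchanged, as were 101 of 128 with 1 library left out. For a gene, unchanged meant the same sign and the same side of the threshold. For a ratio or level it meant the same side or a shift within the replicate spread. A count of called genes was tallied as unchanged when it stayed of similar size. A fall from 3 to 2 of the 8 genes, or from 770 to 594 of all genes, was thus not tallied as a change. DESeq2 called 1322 genes higher and 995 lower, against 770 and 616 with edgeR, and moved Gsk3a past the threshold (log2 fold change 0.34). Upper-quartile scaling called 594 genes higher and 845 lower, which turned the balance of calls, but still called 3 of the 8 genes higher. Divided by the longest transcript, control levels per kilobase were 368 for Vdac1, 264 for Vdac2, 31.2 for Vdac3, 207 for Ppif, 136 for Tspo, 149 for Atpif1, 299 for Gsk3a and 267 for Gsk3b, since the lengths are shorter. With 1 library left out, 1 to 4 of the 8 genes were called higher, the 1 being Tspo (without MitolΔ/Δ or control replicate 2), and 171 (without control replicate 2) to 1471 (without MitolΔ/Δ replicate 4) of all genes were higher and 194 to 1016 lower. Log2 fold changes ran from 0.36 to 0.56 for Vdac1, from -0.027 to 0.30 for Vdac3, from 0.59 to 0.76 for Atpif1 and from 0.27 to 0.40 for Gsk3a. Without both MitolΔ/Δ replicates 3 and 4, chosen after seeing the data, Gsk3a passed (0.48). That fit called 1472 of all genes higher and 961 lower, and it left out the MitolΔ/Δ libraries lowest for Gsk3a. The cause of these shifts was not tested. The labels number replicates 1 to 4 in both groups, but the numbers are no stated pairing, and deviations of same-numbered libraries correlated at 0.0902, -0.107, 0.0882 and 0.0761, with not every library closest to its own number. With the replicate number as a block, edgeR called 957 genes higher and 695 lower and the same number of the 8 genes, 3. Counts of 129 to 349 a library limited Vdac3, and 4 libraries a group limited every test.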
